A study of Homo sapiens with 12 samples.

Results

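The epidermal growth factor receptor (EGFR) system was followed in A549 cells through the genes of 5 ligands (EREG, AREG, HBEGF, TGFA and BTC) and of 3 receptors (EGFR, ERBB2 and ERBB3). Its members were all probe sets, the groups of short probes that report 1 transcript on an Affymetrix array, whose symbol in the probe table is exactly 1 of these 8 names. This gave 28 of the 54613 probe sets that are not controls, from 7 of the 19775 genes with a probe set of their own. A549 is an established human lung adenocarcinoma line. A flow sorter split them, after 90 min in 5 µg/ml of the DNA dye Hoechst 33342, into cells that keep little dye, called the side population (SP), and the remaining non-SP cells. The 4 groups were SP and non-SP cells from cultures given 48 h of a monoclonal antibody to EpCAM (100 µg/ml), and SP and non-SP cells that were not treated. Each group had 3 arrays labelled as biological replicates 1, 2 and 3, so 12 arrays in all. The labels call the antibody anti-mouse EpCAM and name no isotype control. All 4 groups come from the same line with no genetic change, and the sorted fractions were measured in bulk, so fewer cells of a type and less RNA per cell cannot be told apart.

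EGFR ligands are made as membrane-anchored precursors and are released by metalloproteases such as ADAM17. A released ligand binds EGFR on the same or a neighbouring cell, and the receptor then forms dimers with itself or with ERBB2 or ERBB3 and signals through the RAS-ERK and PI3K-AKT cascades. ERBB2 binds no known ligand itself, and ERBB3, the receptor of neuregulins, has little kinase activity of its own, so both work mainly as dimer partners. EREG, AREG, HBEGF and TGFA are themselves induced by ERK signalling, and in lung adenocarcinoma the system is known for driver mutations in EGFR and for autocrine ligand production.

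The values are robust multi-array average (RMA) log2 expression values, so a difference of 1 is a doubling, and levels are compared only within a probe set. A probe set was tested when it averaged more than 5.39, the 40th percentile of these averages, which 32768 probe sets and 23 of the 28 members passed. EREG had 2 probe sets, both above this level, TGFA 3 of 3 and EGFR 9 of 9. HBEGF had 3 of 4, BTC 1 of 2, ERBB2 2 of 3 and ERBB3 3 of 5 above it. No probe set carries the symbol AREG alone in the probe table, so AREG, which encodes the ligand amphiregulin, was not analysed here. An SP and a non-SP array that share treatment and replicate number were taken as a pair, which gave 6 pairs. Their deviations from the group means correlated with r of 0.52 to 0.86, whereas arrays of the same fraction and number but the other treatment had r of -0.36 to 0.66. The sorted values of the arrays of a pair differed by 0.00933 to 0.0215 on average and those of all other array pairs by at least 0.0458, so differences between antibody-treated and untreated cells cross sets of arrays with different value distributions. All 6 epithelial markers (KRT7, KRT8, KRT18, KRT19, EPCAM and CDH1) passed the filter, with means at the 88.9th to 99.9th percentile. The leukocyte marker PTPRC, the endothelial markers CDH5 and VWF and the fibroblast markers LUM and PDGFRA did not pass it. CD3E, CD79A, CD14, PECAM1, DCN and PDGFRB passed it, with means between 5.74 and 7.75. The number of arrays limits the precision.

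EREG encodes epiregulin and lies on chromosome 4 between EPGN and AREG, with BTC as the next coding gene after AREG, so 4 ligand genes of the family are neighbours there. The promoters of EREG, HBEGF and EGFR are shown because the ligand and receptor differences between the fractions that stood out from 0 belong to these 3 genes. Each window runs from 250 bases before to 50 bases after the RefSeq gene start (GRCh38.p14), read 5′ to 3′ on the gene's strand, and capitals mark a TATAAA match. EREG is chr4:74364895-74365194 on the plus strand, HBEGF is chr5:140346554-140346853 on the minus strand and EGFR is chr7:55018767-55019066 on the plus strand.
EREG: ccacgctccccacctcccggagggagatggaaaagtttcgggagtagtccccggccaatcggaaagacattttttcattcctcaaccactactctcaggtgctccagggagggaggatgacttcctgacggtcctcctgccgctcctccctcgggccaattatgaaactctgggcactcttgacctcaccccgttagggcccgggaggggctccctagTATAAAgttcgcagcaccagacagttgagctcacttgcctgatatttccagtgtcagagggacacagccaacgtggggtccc
HBEGF: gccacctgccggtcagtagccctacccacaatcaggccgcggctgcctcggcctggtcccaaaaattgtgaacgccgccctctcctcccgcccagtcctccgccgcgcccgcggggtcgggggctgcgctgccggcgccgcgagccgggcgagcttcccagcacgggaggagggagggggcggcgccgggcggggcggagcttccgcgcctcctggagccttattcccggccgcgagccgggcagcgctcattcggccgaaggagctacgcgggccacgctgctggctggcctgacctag
EGFR: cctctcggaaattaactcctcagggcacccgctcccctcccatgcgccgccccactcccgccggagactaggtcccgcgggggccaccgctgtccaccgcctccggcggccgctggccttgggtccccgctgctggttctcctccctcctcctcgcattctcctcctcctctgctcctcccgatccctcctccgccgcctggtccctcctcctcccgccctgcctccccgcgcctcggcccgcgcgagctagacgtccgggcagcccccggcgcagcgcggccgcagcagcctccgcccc

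Motifs were searched on both strands. The AP-1 motif TGANTCA occurs in 7.71% of 35116 promoters of the same length, and the cAMP response element TGACGTCA in 1.85%. The TATA box letters TATAAA occur in 11.5%, and the serum response element in 1.29%. The EREG window holds TATAAA starting 32 bases before the start and none of the other motifs. The HBEGF window and the EGFR window hold none of the 4. In the neighbouring AREG window (chr4:74444886-74445185, plus strand) TGACGTCA starts 65 bases and TATAAA 29 bases before the start. The ERBB2 window holds TGATTCA starting 222 bases before the start. A second EGFR start in the table (chr7:55109589-55109888, plus strand) has TGAGTCA at 232 and TGACTCA at 136 bases before it. In that window TATAAA starts 146 and 36 bases before the start. The windows of TGFA and BTC hold none of the 4 motifs, and the table has no entry for ERBB3. These matches describe letters only.

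The first question was whether ligand and receptor mRNA differed between SP and non-SP cells. EREG was the member that stood furthest above 0 relative to its error, with both of its probe sets higher in SP cells in 6 of 6 pairs, by 1.30-fold and 1.25-fold. HBEGF was 1.14-fold higher at both of its brighter probe sets, in 5 of 6 pairs. EGFR was lower in SP cells in 6 of 6 pairs at its brightest probe set only. The tested probe sets of TGFA, BTC, ERBB2 and ERBB3 had intervals that included 0. None of the 23 tested members passed an adjusted p of 0.05 (limma on within-pair differences, Benjamini-Hochberg over 32768 probe sets), where 0.641% of all probe sets tested did. At an unadjusted p under 0.05 stood 5 of the 23 members, against 14.3% of all probe sets. Differences of 1 sign in all 6 pairs were found for 2 members higher and 1 lower, against 5.01% and 4.53% of all probe sets. The members' median difference was 0.04 and that of all tested probe sets 0.01, with 13 members above 0 and 10 below.

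**Figure D1:**
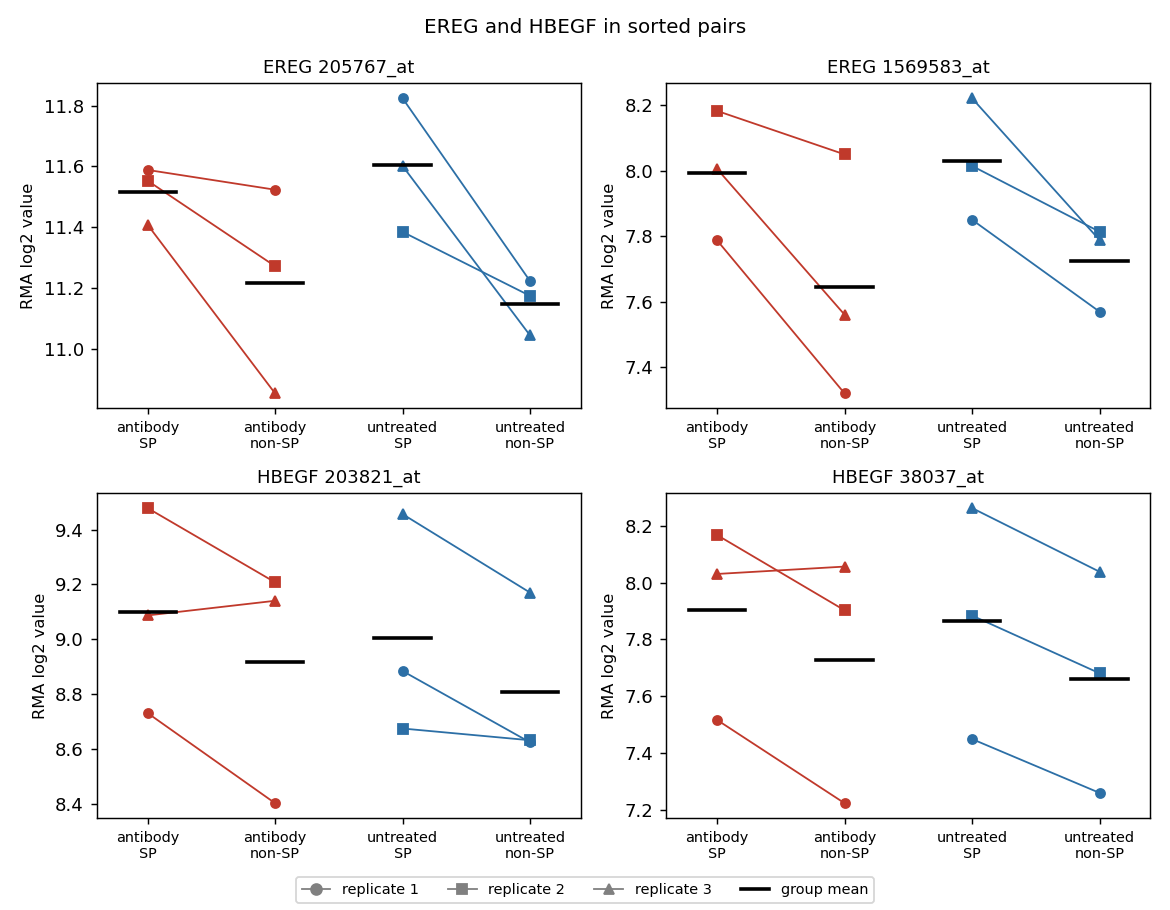
RMA log2 values (y axis, not starting at 0) of 2 EREG and 2 HBEGF probe sets on each of the 12 arrays, by group (x axis). Red is antibody-treated and blue is untreated. Circle, square and triangle are replicates 1, 2 and 3, lines join the arrays of a pair, and the black bar is the group mean. In EREG each SP array lies above the non-SP array of its own pair, while the antibody-treated and untreated groups of a fraction overlap.

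In antibody-treated cells the EREG probe set 205767_at read 11.59, 11.55 and 11.41 in SP replicates 1 to 3 and 11.52, 11.27 and 10.85 in non-SP replicates 1 to 3. In untreated cells it was 11.82, 11.38 and 11.60 in SP and 11.22, 11.17 and 11.04 in non-SP. The fractions overlapped in antibody-treated cells and did not overlap in untreated cells, where 2.02% of all tested probe sets had every SP array above every non-SP array. The group means were 11.52 ± 0.10 in SP and 11.22 ± 0.34 in non-SP cells with antibody, and 11.60 ± 0.22 in SP and 11.15 ± 0.09 in non-SP cells without it (SD, n = 3 each). Over the 6 pairs the difference was 0.38 ± 0.08 (SE, 95% interval 0.19 to 0.57), with a limma adjusted p of 0.102. The exact two-sided sign-flip test over the 6 pairs gave its smallest possible p, 0.03125, unadjusted for the other members. The call depends on which features are tested. With 1 probe set per gene, 362 of 14649 genes passed (150 higher in SP cells), against 0.641% of all probe sets in the main fit. In that fit with 1 probe set per gene the EREG difference had an adjusted p of 0.0302 (limma) and passed. With the 12 arrays taken as independent its SE was 0.13 and its adjusted p 1.00 (no probe set passed in that fit, and 1.72% had an unadjusted p under 0.05), and over the 15 alternatives the difference stayed between 0.32 and 0.44, with adjusted p of 0.0302 to 1.00.

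The other EREG probe set, 1569583_at, read 7.79, 8.18 and 8.0 in SP and 7.32, 8.05 and 7.56 in non-SP cells with antibody. The untreated values were 7.85, 8.01 and 8.22 in SP and 7.57, 7.81 and 7.79 in non-SP cells. Its fractions again overlapped with antibody and not without it. Its difference was 0.33 ± 0.07 (95% interval 0.17 to 0.48, limma adjusted p = 0.0828), the smallest adjusted p among the members. Over the 6 pairs, the differences of both EREG probe sets correlated with r of 0.16, as a description over pairs that share arrays.

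The EREG difference at 205767_at was 0.30 ± 0.12 (95% interval 0.03 to 0.57) in antibody-treated cells and 0.46 ± 0.12 (0.19 to 0.73) in untreated cells. Neither passed, with limma adjusted p of 0.566 and 0.377, and no probe set of the 32768 passed in either treatment (0% called in each). At an unadjusted p under 0.05 stood 2 members in antibody-treated and 4 in untreated cells, against 8.34% and 8.46% of all probe sets. The difference between those values was -0.16 (95% interval -0.54 to 0.23, limma adjusted p = 1.00), so the fraction difference could have been smaller or somewhat larger with antibody. Without antibody pair 3 the difference in antibody-treated cells was 0.17, and leaving out 1 pair at a time took the -0.16 to between -0.28 and -0.04. No member had an unadjusted p under 0.05 in this interaction, against 1.59% of all probe sets.

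HBEGF encodes heparin-binding EGF-like growth factor, a ligand of EGFR and ERBB4. Its brightest probe set, 203821_at, read 8.73, 9.48 and 9.09 in SP and 8.40, 9.21 and 9.14 in non-SP cells with antibody. In untreated cells the values were 8.88, 8.67 and 9.46 in SP and 8.62, 8.63 and 9.17 in non-SP cells. The groups overlapped in both treatments, since the replicates of a group spread more widely than the fractions of a pair. The difference was 0.19 ± 0.07 (95% interval 0.03 to 0.35, limma adjusted p = 0.283).

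A second HBEGF probe set, 38037_at, read 7.52, 8.17 and 8.03 in SP and 7.22, 7.90 and 8.06 in non-SP cells with antibody. Without antibody it read 7.45, 7.88 and 8.26 in SP and 7.26, 7.68 and 8.04 in non-SP cells. Its difference was 0.19 ± 0.06 (95% interval 0.05 to 0.33, limma adjusted p = 0.218), and antibody pair 3 was the pair that ran the other way at both probe sets. The third tested HBEGF probe set, 244857_at, had a difference of -0.02 (adjusted p = 0.923), so the probe sets of HBEGF did not all agree in sign.

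TGFA encodes transforming growth factor alpha. At 205016_at it read 9.60, 9.60 and 9.24 in SP and 9.70, 9.77 and 9.66 in non-SP cells with antibody. Its untreated readings were 9.61, 9.59 and 9.20 in SP and 9.57, 9.58 and 9.66 in non-SP cells. With antibody all 3 SP arrays lay below all 3 non-SP arrays, as did 0.897% of tested probe sets, and without antibody the groups overlapped. Both SP arrays numbered 3 were the lowest of their group. The difference was -0.19 ± 0.08 (95% interval -0.38 to 0.01, limma adjusted p = 0.368), and without untreated pair 3 it was -0.10, with 0.02 left in untreated cells. The other TGFA probe sets gave 0.10 (205015_s_at) and -0.03 (211258_s_at).

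BTC encodes betacellulin, a ligand of EGFR and ERBB4, and read close to the filter. At 241412_at it was 5.69, 5.75 and 5.01 in SP and 5.84, 5.71 and 5.51 in non-SP cells with antibody. Without antibody it was 6.19, 5.66 and 5.07 in SP and 6.03, 5.42 and 5.56 in non-SP cells. The fractions overlapped in both treatments and the pairs ran both ways. The difference was -0.12 ± 0.11 (95% interval -0.38 to 0.14, limma adjusted p = 0.675).

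**Figure D2:**
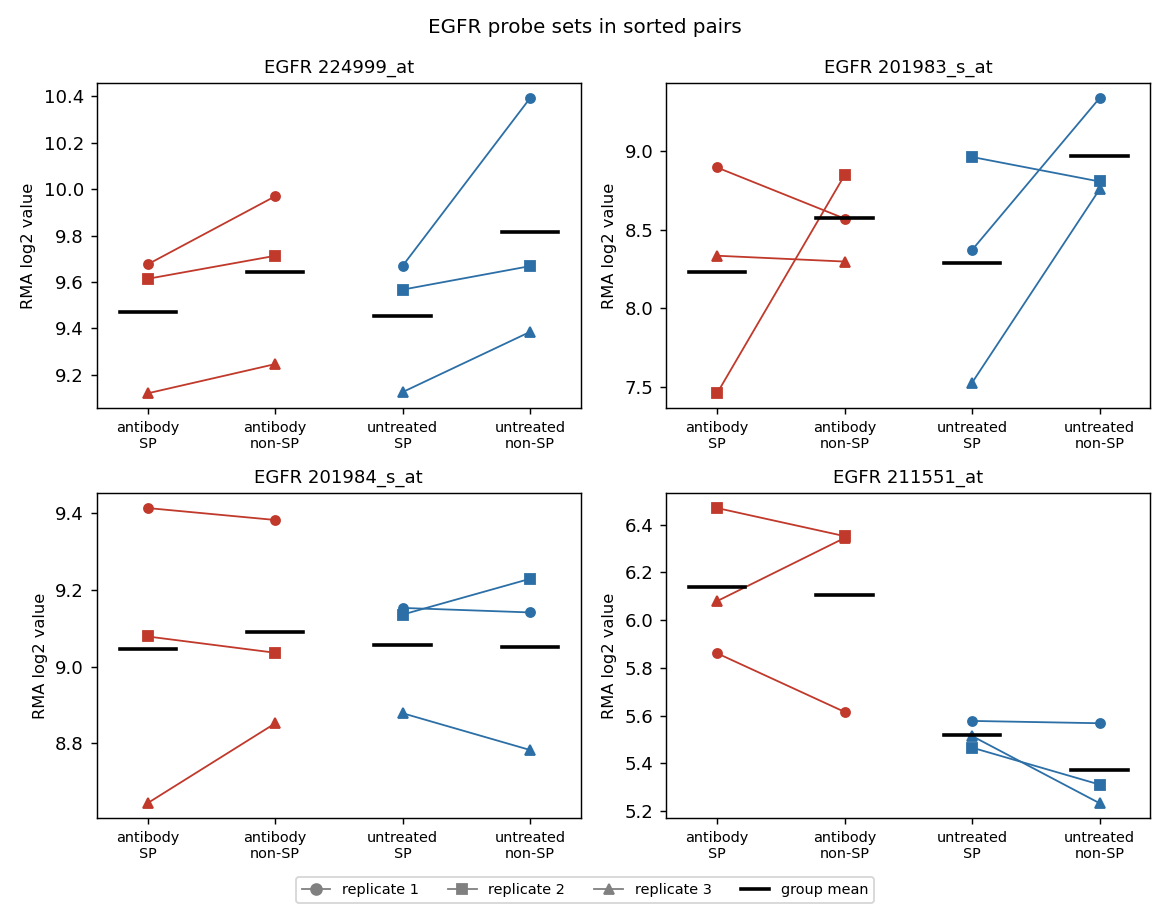
RMA log2 values (y axis, not starting at 0) of 4 EGFR probe sets on the 12 arrays by group (x axis). Red is antibody-treated and blue is untreated. Circle, square and triangle are replicates 1, 2 and 3, lines join the arrays of a pair, and the black bar is the group mean. At 224999_at each SP array lies below the non-SP array of its pair, and at 211551_at the antibody-treated arrays lie above the untreated ones.

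EGFR itself, the receptor tyrosine kinase that all 5 ligands bind, was covered by 9 probe sets. The brightest, 224999_at, read 9.68, 9.61 and 9.12 in SP and 9.97, 9.71 and 9.25 in non-SP cells with antibody. The untreated arrays gave 9.67, 9.57 and 9.12 in SP and 10.39, 9.67 and 9.38 in non-SP cells. The groups overlapped, although each SP array was below its partner. The difference was -0.27 ± 0.09 (95% interval -0.46 to -0.07, 0.831-fold, limma adjusted p = 0.225), and without untreated pair 1 it was -0.18. The next brightest, 201984_s_at, had a difference of -0.02 (95% interval -0.16 to 0.12), so the probe sets did not give 1 answer for EGFR.

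At EGFR probe set 201983_s_at the mean difference was -0.51, wider than at any other member, but its 95% interval was -1.09 to 0.07 (limma adjusted p = 0.405). It read 8.90, 7.46 and 8.33 in SP and 8.57, 8.85 and 8.30 in non-SP cells with antibody. Without antibody it read 8.37, 8.96 and 7.53 in SP and 9.34, 8.81 and 8.76 in non-SP cells. SP was lower in 3 of the 6 pairs, among them antibody pair 2 at -1.39, and higher in the other 3, by up to 0.33. The other 6 EGFR probe sets had differences between -0.05 and 0.16, with adjusted p from 0.644 to 0.761, and 1565483_at and 1565484_x_at ran both ways between pairs, from -0.77 to 0.79 and from -0.67 to 0.63. Several probe sets of EGFR may report different transcripts, and which transcript each reports was not looked up.

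ERBB2 encodes the receptor also called HER2. At 216836_s_at it read 9.09, 9.43 and 9.96 in SP and 8.95, 9.84 and 10.18 in non-SP cells with antibody. In the untreated groups it was 8.84, 9.26 and 9.80 in SP and 8.73, 9.40 and 9.87 in non-SP cells. Replicate 1 was the lowest and replicate 3 the highest in all 4 groups. The fraction difference was -0.10 ± 0.08 (95% interval -0.28 to 0.09, limma adjusted p = 0.62), and that of 234354_x_at was -0.12 (adjusted p = 0.432).

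**Figure D3:**
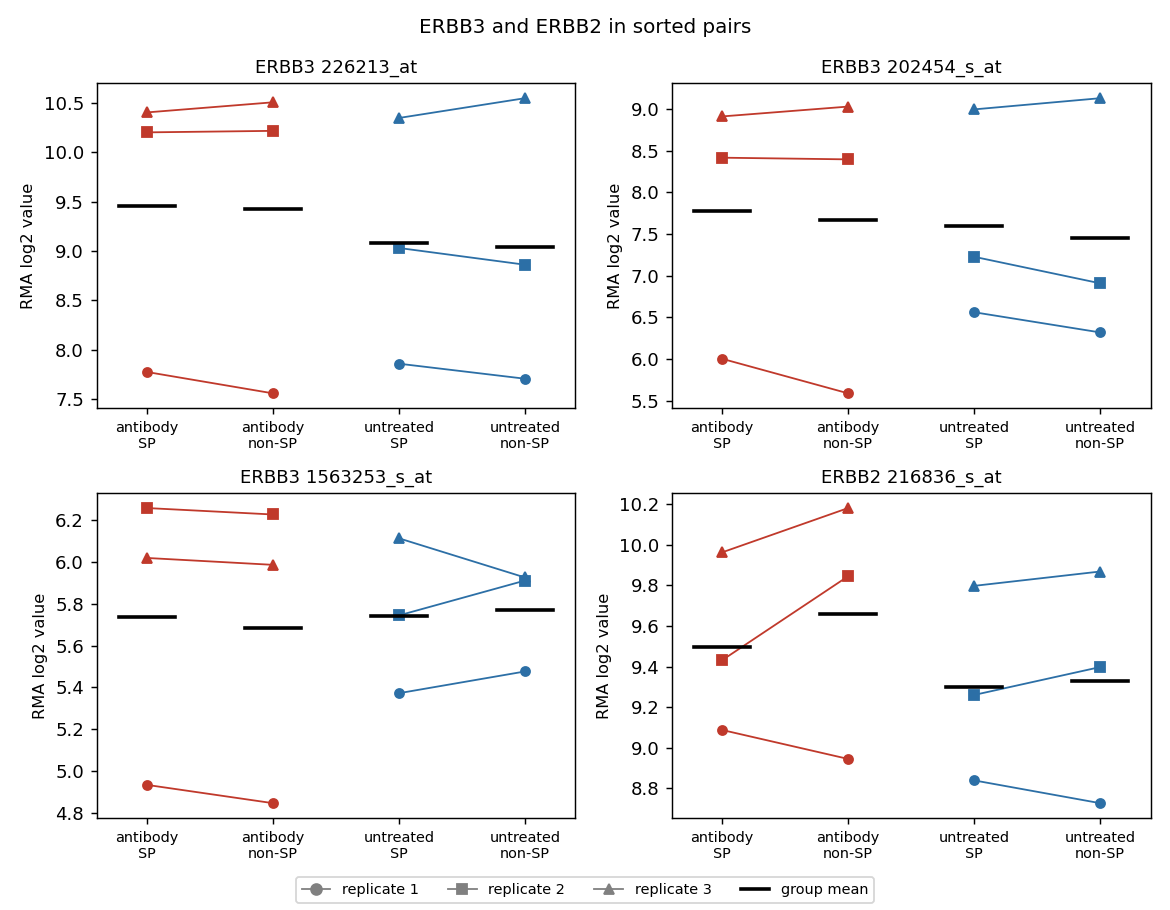
RMA log2 values (y axis, not starting at 0) of 3 ERBB3 probe sets and the brightest ERBB2 probe set on the 12 arrays by group (x axis). Red is antibody-treated and blue is untreated. Circle, square and triangle are replicates 1, 2 and 3, lines join the arrays of a pair, and the black bar is the group mean. At the 2 brighter ERBB3 probe sets the circles lie far below the triangles in every group, while the SP and non-SP arrays of a pair are close.

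ERBB3, the neuregulin receptor, differed little between the fractions at its tested probe sets and, at the 2 brighter ones, widely between the pairs. At 226213_at it read 7.77, 10.20 and 10.40 in SP and 7.56, 10.22 and 10.51 in non-SP cells with antibody. Among untreated arrays it was 7.86, 9.03 and 10.35 in SP and 7.70, 8.86 and 10.55 in non-SP cells. Replicate 1 of every group was thus below 8 and replicate 3 above 10. The fraction difference was 0.04 ± 0.07 (95% interval -0.13 to 0.21, limma adjusted p = 0.861). Of the ERBB3 probe sets below the filter, 1563252_at differed by 0.18, higher in SP cells in 5 of 6 pairs, and 215638_at by -0.11. With no filter the limma adjusted p were 0.422 and 0.671.

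The means of the 6 pairs of ERBB3 226213_at spanned 2.79, against a median span of 0.718 over all tested probe sets, and 0.339% of them spanned at least as much. At 202454_s_at the span was 3.27, which 0.162% reached, and its fraction difference was 0.12 ± 0.09 (95% interval -0.09 to 0.33). The 202454_s_at values were 6.00, 8.41 and 8.91 in SP and 5.59, 8.39 and 9.03 in non-SP cells with antibody, and 6.56, 7.23 and 8.99 in SP and 6.32, 6.91 and 9.13 in non-SP cells without it. After quantile normalization of the 12 arrays together the spans were 2.48 and 2.75. The third tested probe set, 1563253_s_at, spanned 1.35, and 0.688 after quantile normalization, against a median of 0.511 there, and its fraction difference was 0.01 (95% interval -0.13 to 0.15). Array medians also differed by replicate number, from 5.58 to 6.24 with the lowest in replicate 1, and the part of array processing in the ERBB3 spread was not tested beyond these scalings.

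**Figure D4:**
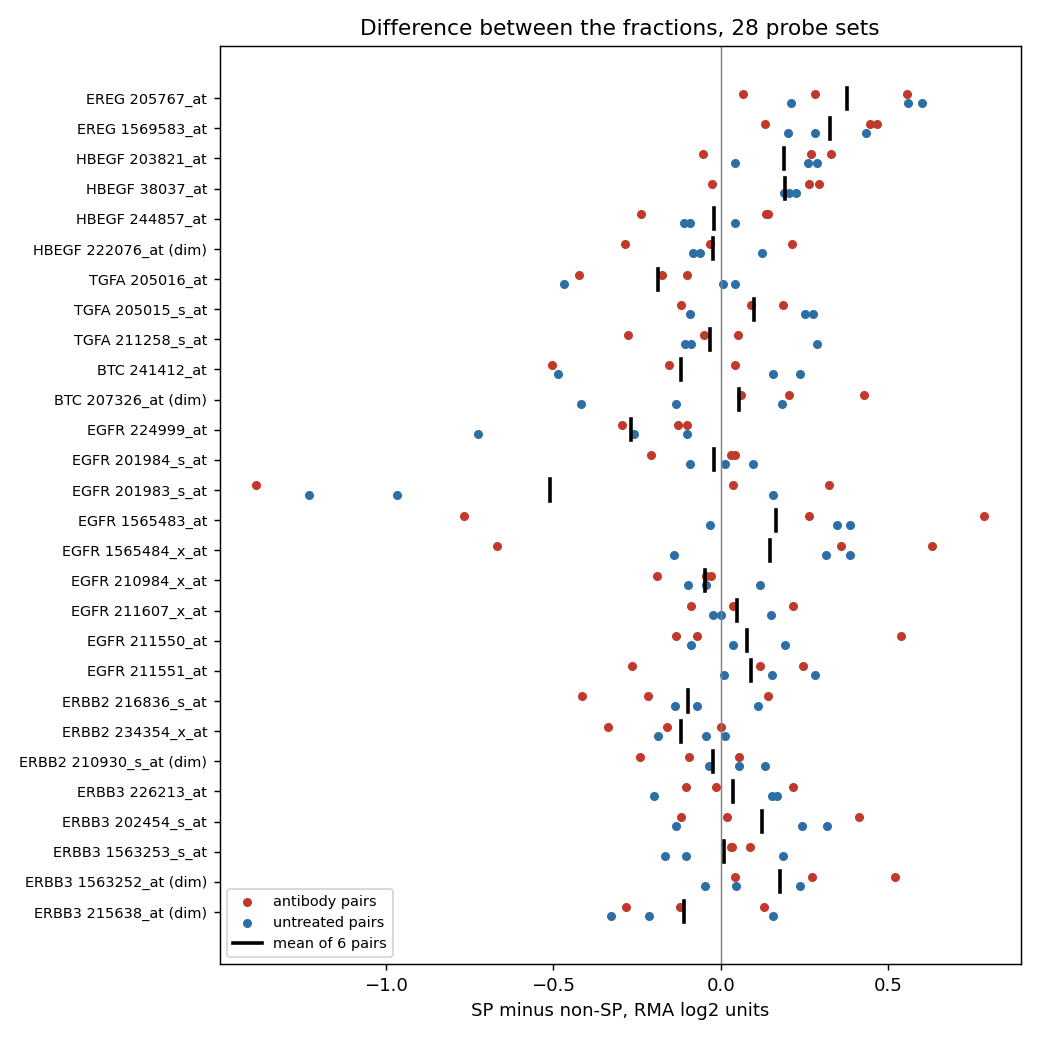
SP minus non-SP differences on the log2 scale in each of the 6 pairs (x axis) for the 28 member probe sets (y axis), those below the filter marked as dim. Red points are antibody-treated pairs, blue points are untreated pairs and black bars are means of 6 pairs. The EREG points all lie above 0, those of EGFR 224999_at all below 0, and those of most other probe sets on both sides.

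The pairs also differed in the 3′ minus 5′ differences of control probe sets, an indirect sign of RNA quality. The 3′ minus 5′ difference of the GAPDH control probe sets, SP minus non-SP, was 0.54, 0.30 and -0.38 in antibody pairs 1 to 3 and -0.11, 0.01 and 0.11 in untreated pairs 1 to 3. For ACTB the same values were 1.86, 0.27 and -2.09 with antibody and -0.25, -0.26 and -0.36 without it. In antibody pairs 1 to 3 the EREG 205767_at differences were 0.07, 0.28 and 0.56, lowest in the pair with the highest control values and highest in the pair with the lowest. The other EREG probe set, 1569583_at, did not have this order, with differences of 0.47, 0.13 and 0.44 in the same pairs. Those of HBEGF 38037_at were 0.29, 0.26 and -0.03. The EGFR probe sets 1565483_at (0.79, 0.26 and -0.77) and 1565484_x_at (0.63, 0.36 and -0.67) had the sign of the GAPDH values in all 3 antibody pairs. In untreated pairs 1 to 3 the EREG 205767_at differences were 0.60, 0.21 and 0.56, those of 1565483_at 0.35, -0.03 and 0.39, and those of 1565484_x_at 0.32, -0.14 and 0.39. The part of RNA quality in these differences was not tested beyond the fit with the GAPDH value as a covariate. No member passed in that fit, but none passed in the main fit either, so this count says nothing about RNA quality.

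The second question was whether the antibody changed the members. Between antibody-treated and untreated pair means no member passed, and neither did any of the 32768 probe sets (limma, 0% called, 156 or 0.476% at an unadjusted p under 0.05). The same held within SP cells (0% called, 0.537% unadjusted) and within non-SP cells (0% called, 1.05% unadjusted). All tested probe sets together were shifted by a median of 0.093 with antibody as deposited, by 0.0062 after joint quantile normalization and by -0.039 after centring. The members' median of 0.058 and the 16 of 23 members above 0 are to be read against this shift and against 76.1% of all probe sets above 0.

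For EREG 205767_at the antibody minus untreated difference of the pair means was -0.01 (95% interval -0.44 to 0.42). For HBEGF 203821_at it was 0.10 (-0.54 to 0.74), for ERBB2 216836_s_at 0.26 (-0.56 to 1.08) and for ERBB3 226213_at 0.39 (-1.67 to 2.44), each with a limma adjusted p of 1.00. The interval of ERBB3 leaves room for changes of several fold in either direction, because the replicates of each group lie so far apart. TGFA 205016_at at 0.06 (-0.33 to 0.44), BTC 241412_at at -0.07 (-0.68 to 0.54) and EGFR 224999_at at -0.08 (-0.70 to 0.54) had narrower intervals around 0.

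At EGFR probe set 211551_at the antibody-treated arrays read 5.86, 6.47 and 6.08 in SP and 5.62, 6.35 and 6.34 in non-SP cells. The untreated arrays read 5.58, 5.47 and 5.51 in SP and 5.57, 5.31 and 5.23 in non-SP cells. All 6 antibody-treated arrays lay above all 6 untreated ones, as in 0.189% of tested probe sets. The difference of the pair means was 0.68 ± 0.22 (95% interval 0.17 to 1.18, limma unadjusted p = 0.0153, adjusted p = 1.00). The exact two-sided permutation test of 3 against 3 pair means gave 0.1, its smallest possible p. After joint quantile normalization or centring the difference was 0.54 and the groups overlapped. The other 8 EGFR probe sets had differences between -0.23 and 0.32, so the difference was not shared by the probe sets of the gene, and 211551_at was singled out after its values were seen.

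The genes around the receptor were counted with 1 probe set per gene, the brightest one tested. For SP against non-SP the share of representative probe sets that passed was 0.109% higher and 0.355% lower. Of 7 other EGF family genes, 2 were tested and neither passed: NRG1, a neuregulin that binds ERBB3, differed by 0.10 (limma adjusted p = 0.429) and NRG2 by -0.01 (adjusted p = 0.967). The other 4 tested NRG1 probe sets had the opposite sign. None of the 9 genes of ligand shedding passed, and the median difference was 0.02 with 5 above 0. Nearest to the threshold were RHBDF1, an inactive rhomboid that escorts ADAM17, at -0.25 ± 0.05 (adjusted p = 0.0848, lower in 6 of 6 pairs), and the metalloprotease ADAM12 at -0.47 ± 0.16 (adjusted p = 0.237). The other tested RHBDF1 probe set had the opposite sign.

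None of the 15 genes of receptor restraint and turnover passed, with 9 above 0 and a median of 0.05. ERRFI1, which encodes the EGFR kinase inhibitor MIG6, differed by 0.22 ± 0.07 (limma adjusted p = 0.234). SOCS5, a suppressor of cytokine signalling that lowers EGFR levels, differed by 0.22 ± 0.06 (adjusted p = 0.179), and both were higher in SP cells in 6 of 6 pairs. None of the 11 tested genes of the adaptors and RAS-ERK cascade passed, where GAB1 (0.13) and PTPN11 (0.07) had the smallest p. The median there was 0.01.

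In the PI3K-AKT arm 1 of 6 tested genes fell, 0 rose and 5 did not pass. INPP4B, a lipid phosphatase that removes a product of PI3K, fell by 0.54 ± 0.08 in SP cells (limma adjusted p = 0.0318, lower in 6 of 6 pairs). PIK3R1, the regulatory subunit of PI3K, differed by 0.14 (adjusted p = 0.298), and the median of the 6 genes was -0.09. Of 15 genes that respond to ERK signalling, 2 rose and 13 did not pass. In this list 13 were above 0 and the median was 0.15, against 0.0056 over all 14649 genes, of which 52.4% were above 0. This list, like the others, was chosen with earlier results of these data known, so its count and median are a description and no test. FOS, a subunit of AP-1, rose by 0.45 ± 0.05 (adjusted p = 0.0224), and EGR1, an immediate early transcription factor, rose by 0.53 ± 0.07 (adjusted p = 0.0261), both in 6 of 6 pairs. FOSL1 at 0.41 (adjusted p = 0.0701) and the ERK phosphatase DUSP6 at 0.36 (adjusted p = 0.0717) were nearest to the threshold. EGR1 has 2 further tested probe sets, of which 1 ran the other way. With 1 pair left out at a time, the calls of INPP4B, FOS and EGR1 held without antibody pair 1 (limma adjusted p of 0.0387 to 0.0495). Without untreated pair 1, 2 or 3 or antibody pair 2 or 3 the adjusted p were 0.0677 to 0.157, with differences of -0.48 to -0.59 for INPP4B, 0.41 to 0.46 for FOS and 0.49 to 0.56 for EGR1. Adding the GAPDH 3′ minus 5′ value as a covariate gave adjusted p of 0.0537 to 0.0577, with differences of -0.56 for INPP4B, 0.45 for FOS and 0.51 for EGR1. The 3 calls were also lost with trended and robust moderation (adjusted p = 0.421) and held under the other filters, scalings and 1 probe set per gene. Without both antibody pairs 1 and 3 the differences were -0.44 for INPP4B, 0.44 for FOS and 0.45 for EGR1. That fit has antibody pair 2 as its only antibody-treated pair, so no call is given for it. No probe set passed when the 12 arrays were taken as independent, and no gene of any list passed between antibody-treated and untreated pair means.

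As a description over the 12 median-centred arrays, which share cell line, pairs and array sets, the genes with the pattern most like that of a member were found by Pearson correlation. For EREG they were PHLDA1 and MCM10 (r = 0.97 each), for HBEGF CERS5 (0.92) and BBS12 (0.91), and for TGFA ZMIZ1 and DPH5-DT (0.98 each). For BTC they were ZCCHC14 and SMKR1 (0.97 each), and for EGFR GTPBP8 and IGSF3 (0.98 each). For ERBB2 they were PHF2 (0.97) and BRD2 (0.95). For ERBB3 they were the fibrinogen genes FGG and FGA (0.99 each). These r depend on centring, since the span of the pair means was 0.849 centred and 0.255 as deposited for TGFA 205016_at, and 1.07 centred and 0.426 as deposited for EREG 205767_at. On the deposited values, a scale tried after seeing the data, EGFR with IGSF3 had r of -0.36 and BTC with ZCCHC14 0.46, while the other 12 comparisons stayed at 0.83 or above. After quantile normalization EGFR with IGSF3 had 0.20. At ERBB3 226213_at the pairs differed more than the fractions did. The pair means spanned 2.79, and the fractions within a pair differed by at most 0.217.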

How the data were processed

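Each array's values are deposited log2 expression values per probe set, made with RMA per the submitters' processing notes, whose version and joint array processing are not given in the sources used here. Gene names came from the probe table: 41091 probe sets had 1 symbol, 1801 several and 11721 no entry, and 62 controls were left out. Promoters were matched by symbol to RefSeq (GRCh38.p14). Fits used limma 3.58.1 (R 4.3.3; statmod 1.5.0). SP minus non-SP was fitted on the differences of 6 pairs, antibody minus untreated on 12 arrays within a fraction and on 6 pair means, with eBayes without trend and Benjamini-Hochberg adjustment over 32768 probe sets. The pairing rests on the correlations of same-treatment, same-number arrays (r of 0.52 to 0.86). The labels call replicates biological but do not say that they are separate cultures, so p-values measure the spread between these samples.

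The members and lists were chosen with earlier results of these data known. Named were all members, list genes that passed and up to 2 more of smallest p per list, and for likeness 2 genes per member. The fits were tested on simulated data with the pairs built in. That test checked the calculation and cannot show whether the pairing holds in these data. Alternatives were other filters, normalization and centring, pairs left out, no replicate block, trended and robust eBayes, 1 probe set per gene and GAPDH 3′/5′ as a covariate.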

Additional observations from a re-analysis of the deposited data

Results flagged for a closer look

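The 6 pair differences of each of the 23 tested member probe sets were checked for a pair far from the others, a check that picks out about 1 in 20 by chance, and 2 were found. HBEGF 38037_at had an SP minus non-SP difference of -0.0259 in antibody pair 3, against 0.189 to 0.293 in the other 5 pairs, a gap of 0.675 of the whole range. EGFR 224999_at had a difference of -0.724 in untreated pair 1, against -0.294 to -0.0993 in the other 5 pairs, a gap of 0.689 of the range.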

How the results depend on the processing

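Of the members' values under the alternatives, 909 stayed on the same side of the threshold and 1 changed side. EREG 205767_at passed with 1 probe set per gene (limma adjusted p = 0.0302), where 362 of 14649 genes passed. Over all probe sets, the SP minus non-SP count over both treatments was 210 (51 higher, 159 lower). It was 362 with 1 probe set per gene, 45 with the GAPDH covariate, and 0 with trended and robust eBayes (3817 at an unadjusted p under 0.05) and without both antibody pairs 1 and 3 (6401 unadjusted). With no replicate block, thus without pairing, it was 0 (limma, 563 unadjusted). Leaving out 1 pair gave 0 to 322: 322, 0 and 11 without antibody pairs 1, 2 and 3, and 10, 22 and 0 without untreated pairs 1, 2 and 3 (3248 and 2843 unadjusted where it was 0). In antibody-treated cells alone the count was 1 with no filter and 36 with 1 probe set per gene, and in untreated cells 14 with 1 probe set per gene. With a replicate block the antibody counts stayed at 0 (limma, unadjusted 1661 in SP, 2784 in non-SP and 1199 for both). It changed no call of a member. The causes were not tested. Dim probe sets near the filter, such as BTC, carry less signal over background.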
